A study of Homo sapiens with 12 samples.

Results

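Integrins and laminins are the receptor and matrix sides of one adhesion system, and their chain genes were followed here in cardiomyocytes on a conductive and a non-conductive fibre scaffold. The genes were taken by name: every integrin α chain (ITGA followed by a number or letter), every integrin β chain (ITGB followed by a number) and every laminin α, β and γ chain (LAMA, LAMB or LAMC followed by a digit), without the integrin-binding proteins. This gave 38 of the 60583 gene names in the count table: 18 integrin α chains, 8 integrin β chains and 12 laminin chains. Of these, 33 had enough counts to be tested and 5 did not.

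The cells were cardiomyocytes made from RUES2, an established human embryonic stem cell line, and all of them were wild type and kept in RPMI with B27 and insulin. At day 50 they were placed for 3 days on electrospun scaffolds of 9.75% PEDOT:PSS/PVA, a conducting polymer blend in polyvinyl alcohol (called PEDOT below), or of 8% PVA, which does not conduct and served as the control. Each scaffold had 3 biological replicates with 2 technical libraries each, so 12 ribodepleted total RNA libraries were sequenced. No label says that the biological replicates were separate differentiations, so p-values measure the spread between these samples. Cells were taken off the scaffold with trypsin before lysis, and every group shares that step.

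Each integrin is a pair of an α and a β chain that spans the cell membrane, binds extracellular matrix outside and is tied to actin inside through talin and kindlin. Each laminin is a trimer of an α, a β and a γ chain, secreted into the basement membrane that surrounds single heart muscle cells. In heart and skeletal muscle the main laminin receptor of the mature cell is the pair of ITGA7 with ITGB1, and its main ligand holds the α2 chain encoded by LAMA2. Fibroblasts bind collagen instead, mainly through ITGA1, ITGA2 or ITGA11 with ITGB1.

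Libraries held 19.1 to 30.95 M counts, and the technical libraries were summed to 3 PEDOT and 3 PVA sums of 44.5 to 57.5 M. The labelled cell type fitted its markers: the 10 cardiomyocyte markers summed to 67043, 87967 and 82796 CPM (counts scaled to library size) in PEDOT replicates 1, 2 and 3, against 58038, 75617 and 79245 CPM in PVA replicates 1, 2 and 3. Within each of the 6 sums the technical libraries differed beyond sampling noise, with a chi-square of 5.86 to 14.5 per gene, so none was a library deposited again. PVA replicate 3 had the highest of these values. CPM values below are scaled by TMM factors, and levels of different genes are compared only per kb of exon.

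The laminin side was led by LAMB2, LAMC1, LAMA2 and LAMA5. LAMB2, the β chain of mature muscle basement membranes, had the highest level of all members at 156 CPM per kb over the 6 sums. LAMC1, the γ chain that most laminins share, followed at 98.5 CPM per kb, then LAMA2 at 60.8 and LAMA5, an α chain of many epithelial and vascular basement membranes, at 35.3 CPM per kb. LAMB1 at 12.3 and LAMA4, an α chain of vessel walls, at 10.9 CPM per kb came next. LAMB3 (2.56 CPM per kb) and LAMA3 (0.107), chains of epithelial laminin, were low, as were LAMA1 (0.743), an embryonic chain, and LAMC3 (0.508).

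On the receptor side ITGAV and ITGB1 stood highest and close together. ITGAV, which pairs with several β chains to bind vitronectin and latent TGF-β, had 95.5 CPM per kb, and ITGB1, the partner of most α chains, had 94.5. ITGA7 followed at 54.5 CPM per kb. ITGA5, the fibronectin receptor chain, was at 19.8, ITGB5, which pairs with ITGAV, at 17.4, and ITGA3, a laminin receptor chain of epithelia, at 11.5 CPM per kb. The 4 collagen-binding chains lay lower and near each other: ITGA1 at 5.57, ITGA11 at 4.17, ITGA10 at 4.02 and ITGA2 at 3.11 CPM per kb. ITGA6, the other laminin receptor α chain, was at 1.42 CPM per kb and ITGB4, its partner in epithelial hemidesmosomes, at 2.48.

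ITGAX, ITGAM, ITGA2B and ITGB2, chains known from leukocytes and platelets, lay between 0.028 and 0.208 CPM per kb, and ITGAD, ITGAL and ITGB7 had totals of 9, 2 and 7 counts over all 6 sums. Together with ITGB6, an epithelial chain (40 counts), and LAMB4 (26 counts) these were the 5 members below the count filter. Higher were ITGB3, which platelets pair with ITGA2B and other cells with ITGAV, at 6.36 CPM per kb, and ITGAE, a lymphocyte chain, at 1.07. Leukocyte markers were low: the 8 genes summed to 1.51 to 1.77 CPM in PEDOT sums and 1.58 to 2.11 CPM in PVA sums, with CD3E at 0. The 7 megakaryocyte and platelet markers summed to 2.02 to 2.66 CPM in PEDOT sums and 2.39 to 3.94 CPM in PVA sums, with PF4 and PPBP at 0.

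**Figure D1:**
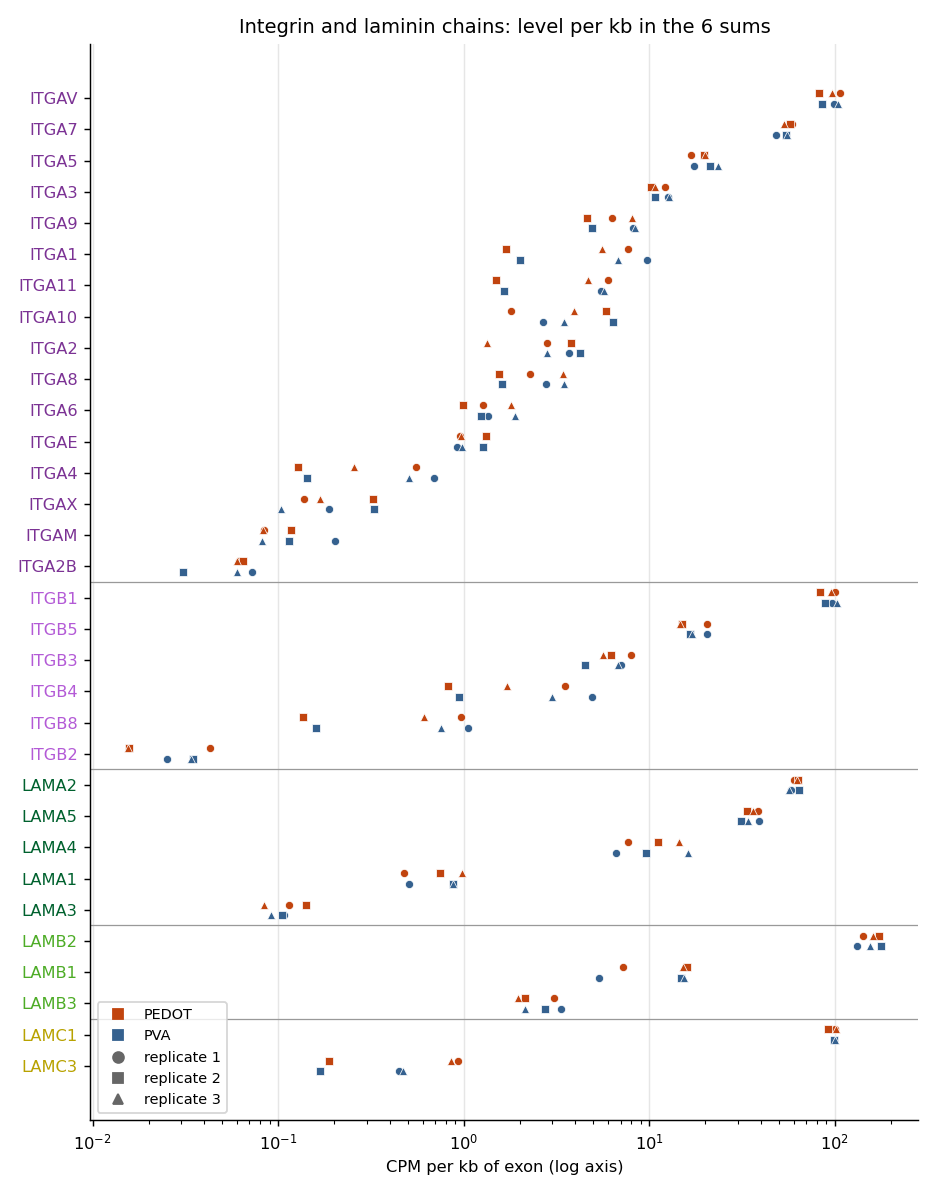
Level of 32 tested chains in CPM per kb of exon on a log axis, with 1 point for each PEDOT sum (red, upper row of each gene) and PVA sum (blue, lower row), shaped by replicate number. LAMB2, LAMC1, ITGAV and ITGB1 lie near or above 100 on both scaffolds, while ITGA1, ITGA11, ITGB4, ITGB8 and LAMC3 spread widely with replicate 2 (squares) lowest on both.

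The first question of the design was whether the conductive scaffold changes these genes. No integrin or laminin chain passed the test between PEDOT and PVA (0 of 33 by edgeR's quasi-likelihood test, Benjamini-Hochberg over 21298 genes), where 0% of all genes did. At an unadjusted p under 0.05 the count was 0 of 33 members, against 0.892% of all genes. DESeq2 and limma-voom, at an adjusted p under 0.05, also called 0. In 0 of the 33 members did the PEDOT and PVA sums fall into separate ranges, a pattern held by 4.6% of all genes. The members' fitted log2 differences were above 0 for 12 and below 0 for 21 with a median of -0.08, and over all genes tested the median was -0.01.

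The most abundant chains sat close to 0 with small errors. LAMC1 had 843, 776 and 861 CPM in PEDOT replicates 1, 2 and 3, against 836, 832 and 843 CPM in PVA replicates 1, 2 and 3. The scaffolds overlapped, and the log2 difference was -0.02 ± 0.09 (SE). ITGAV had 874, 678 and 797 CPM in PEDOT sums, against 809.7, 700.3 and 852 CPM in PVA sums, a log2 difference of -0.01 ± 0.13. ITGB1 had 602, 502 and 570.1 CPM in PEDOT sums, against 581, 534 and 621 CPM in PVA sums, a log2 difference of -0.05 ± 0.11. For both, replicate 2 was the lowest on each scaffold and the scaffolds overlapped.

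The muscle laminin and its receptor gave the same picture. LAMA2 had 623, 653 and 648 CPM in PEDOT sums, against 602, 665 and 584.5 CPM in PVA sums, a log2 difference of 0.06 ± 0.10. LAMB2 had 968, 1183 and 1109 CPM in PEDOT sums, against 906, 1214 and 1060.1 CPM in PVA sums, a log2 difference of 0.04 ± 0.15. ITGA7 had 374, 364 and 339 CPM in PEDOT sums, against 307, 349 and 351 CPM in PVA sums, a log2 difference of 0.10 ± 0.10. The scaffolds overlapped for all 3, and the ITGA7 difference lay mainly in replicate 1 (0.28, against 0.06 in replicate 2 and -0.05 in replicate 3). LAMA5 had 549, 480.4 and 515 CPM in PEDOT sums, against 557, 444 and 484 CPM in PVA sums, a log2 difference of 0.06 ± 0.12.

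Same-numbered PEDOT and PVA sums deviated together across genes, so the scaffolds were also compared within replicate numbers. With the replicate number as a block 57 genes of the whole table were called, 0.268% of those tested, and 0 of 33 members were. At an unadjusted p under 0.05 the block gave 6 of 33 members, against 8.32% of all genes. At an adjusted p under 0.05 the blocked fit of DESeq2 called 2 members (96 genes of the whole table) and that of limma-voom 1 (67 genes). The direction was the same in all 3 pairs for 13 members, lower on PEDOT for 12 and higher for 1, a pattern that 28.9% of all genes held in either direction. The 12 were ITGA5, ITGA3, ITGA9, ITGA1, ITGA2, ITGA8, ITGA6, ITGA4, ITGB5, ITGB4, ITGB8 and LAMB3, and the 1 was LAMC3.

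The 4 members nearest to a call within pairs were a laminin chain, a hemidesmosome chain and a pair of collagen receptor chains, all of low or middle level. ITGB4 had 23.8, 5.54 and 11.5 CPM in PEDOT replicates 1, 2 and 3, against 33.2, 6.39 and 20.3 CPM in PVA replicates 1, 2 and 3. PEDOT was lower in each pair while the scaffolds overlapped, and the blocked log2 difference was -0.53 ± 0.11 (adjusted p = 0.0718 by edgeR). ITGA1, a collagen receptor chain of fibroblasts and smooth muscle, had 143, 31.5 and 103 CPM in PEDOT sums, against 179.8, 37.2 and 126 CPM in PVA sums. It too was lower on PEDOT in each pair, by -0.34, -0.24 and -0.30 on the log2 scale, with a blocked difference of -0.29 ± 0.06 (adjusted p = 0.0865 by edgeR).

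LAMC3, a γ chain of low abundance, was the only member higher on PEDOT in all 3 pairs. It had 6.96, 1.40 and 6.38 CPM in PEDOT sums, against 3.36, 1.26 and 3.53 CPM in PVA sums. The gap lay in replicates 1 and 3 (1.04 and 0.85 on the log2 scale) and was small in replicate 2 (0.15), and the blocked difference was 0.76 ± 0.18 (adjusted p = 0.120 by edgeR). ITGA2, a collagen receptor chain, had 22.2, 29.8 and 10.6 CPM in PEDOT sums, against 29.2, 33.6 and 22.1 CPM in PVA sums. Replicate 3 carried most of its gap (-1.06, against -0.40 in replicate 1 and -0.17 in replicate 2), and the blocked difference was -0.53 ± 0.13 (adjusted p = 0.136 by edgeR).

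Calls for these 4 within pairs depended on the setting. ITGB4 passed in 6 of the 24 blocked fits that were run, ITGA2 in 3 of 24, ITGA1 in 2 of 24 and LAMC3 in 1 of 23. Of the exon bases of ITGA1, 5.77% are shared on the same strand with other genes of the table (PELO among them), and the counting command holds no option that would count such reads. Of ITGB3's exon bases 35.9% are shared with AC068234.1, so the ITGB3 level is uncertain: it had 50.0, 39.3 and 35.6 CPM in PEDOT sums, against 44.6, 28.4 and 43.0 CPM in PVA sums.

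**Figure D2:**
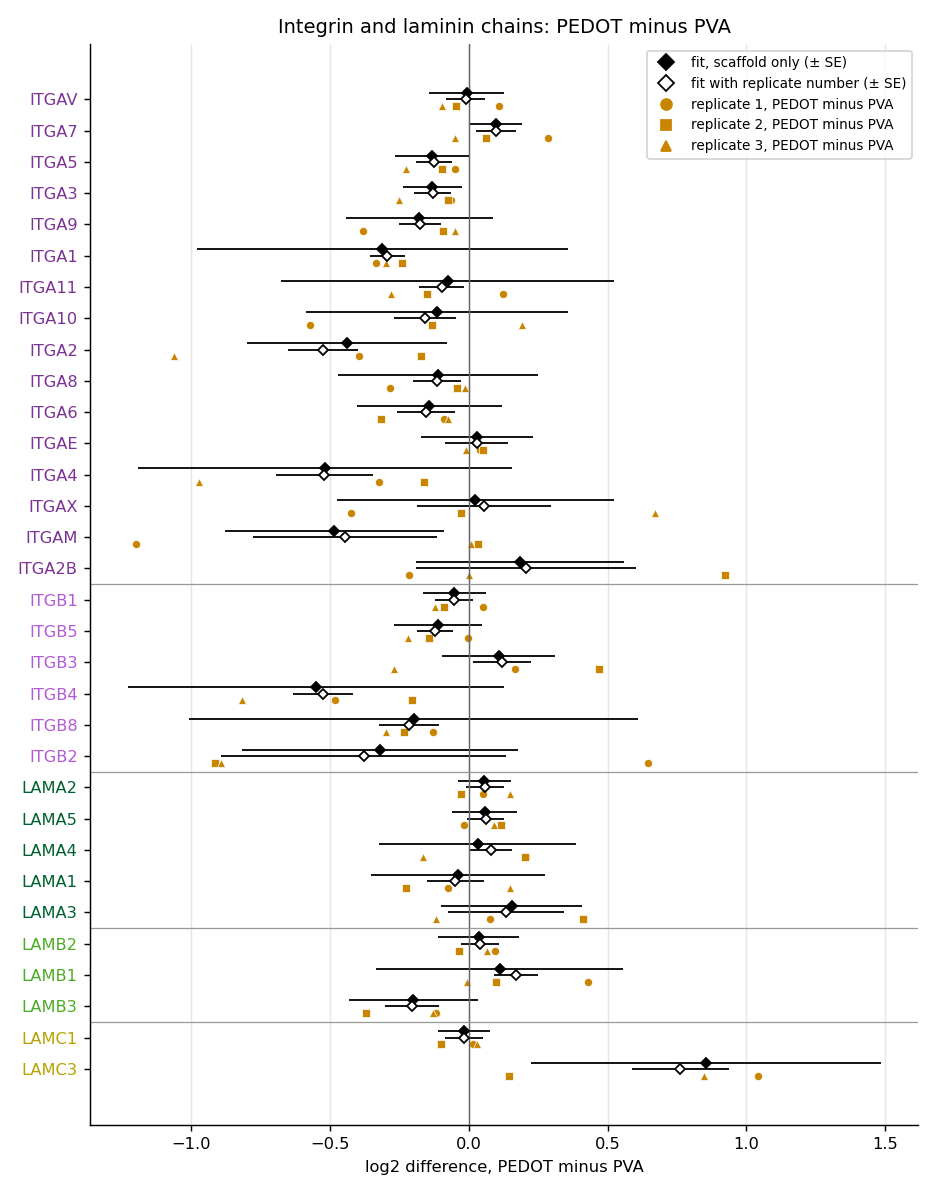
Log2 difference PEDOT minus PVA of 32 tested chains: filled diamonds are the fit with scaffold only and open diamonds the fit with replicate number, both with SE bars, and gold symbols are the difference within each replicate number. Bars of the first fit span 0 for most chains, those of the second are mostly shorter, and LAMC3 lies furthest to the right (0.85 and 0.76).

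The make-up of the chain families was compared as shares of length-corrected counts, and 9 shares were tested with an exact two-sided permutation test that cannot go below 0.1 with 3 against 3. LAMA2 made up 56.4% ± 1.60 of the laminin α chains on PEDOT and 56.3% ± 4.10 on PVA (SD, n = 3 each; exact p = 1). LAMA5 made up 32.8% ± 2.75 on PEDOT and 32.7% ± 4.15 on PVA (SD, n = 3 each; exact p = 0.9). LAMB2 made up 92.7% ± 2.11 of LAMB1 plus LAMB2 on PEDOT and 93.1% ± 2.65 on PVA (SD, n = 3 each; exact p = 0.7).

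Among the laminin receptor α chains ITGA7 took 82.0% ± 1.44 of ITGA3 plus ITGA6 plus ITGA7 on PEDOT and 79.5% ± 2.33 on PVA (SD, n = 3 each; exact p = 0.3). This share was higher on PEDOT in 3 of 3 pairs, and an exact sign-flip test over 3 pairs gave 0.25, the smallest it can give. ITGA5 took 16.7% ± 2.90 of ITGA5 plus ITGAV on PEDOT and 17.8% ± 2.54 on PVA (SD, n = 3 each; exact p = 0.6). ITGB5 took 14.3% ± 1.62 of ITGB1 plus ITGB3 plus ITGB5 on PEDOT and 15.0% ± 1.58 on PVA (SD, n = 3 each; exact p = 0.7). Both were lower on PEDOT in 3 of 3 pairs, and all 9 shares had a Benjamini-Hochberg adjusted exact permutation p of 1.

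The replicate number, in contrast, separated most of these genes. With scaffold in the model, 23 of the 33 tested chains differed between replicate numbers (69.7%; edgeR F test, adjusted p under 0.05), against 31.8% of all genes. Abundant genes are called more often, so the 25 chains with a mean of 5 CPM or more were set beside genes of that level: 19 of the 25 were called, against 40.8%. In the median member the replicate number held 86.5% of the variance in log2 CPM over the 6 sums and the scaffold 6.20%. In the median of all genes tested, not matched by level, they held 70.4% and 6.10%. Replicate number has more levels than scaffold, so these shares are not on equal terms. The median absolute log2 difference between technical libraries of a sum was 0.20 in members and 0.18 over all genes. Between scaffolds in a pair it was smaller in members, 0.13 against 0.16 over all genes. The variance left by replicate number and scaffold was also smaller, 5.04% in the median member and 15.4% in the median gene. The part of this spread in the number of calls was not tested.

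Replicate 2 stood lower for 15 members and higher for 8 than replicate 1 (28.9% of all genes called). Replicate 3 was lower for 8 and higher for 7 than replicate 1 (13.2% of all genes called), and higher for 11 and lower for 4 than replicate 2 (19.4% of all genes called). Without library 1 or library 3 of PVA replicate 3, whose technical libraries differed most, 22 and 23 members were called. For 12 of the called members the highest replicate number was more than 2-fold above the lowest.

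ITGA1 and ITGA11, 2 of the 4 collagen receptor chains, were lowest in replicate 2. ITGA1, whose values per sum are given above, was 2.22 ± 0.08 lower on the log2 scale in replicate 2 than in replicate 1 (adjusted p = 2.3e-10 by edgeR), and every library of replicate 2 lay below every other library. In the 12 libraries ITGA1 had 27.6 and 35.8 CPM in PEDOT replicate 2 and 33.9 and 39.2 CPM in PVA replicate 2, against 96.1 to 146 CPM in the other 4 PEDOT libraries and 97.6 to 183 CPM in the other 4 PVA libraries. ITGA11, the collagen receptor chain of fibroblasts, had 65.4, 16.1 and 50.8 CPM in PEDOT replicates 1, 2 and 3, against 60.0, 17.9 and 61.6 CPM in PVA replicates 1, 2 and 3. Its level in replicate 2 was below every other sum, with a log2 difference of -1.89 ± 0.10 between replicates 2 and 1 (adjusted p = 8.1e-09 by edgeR).

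The β chains ITGB8 and ITGB4 and the α chain ITGA4 followed the same order. ITGB8, which with ITGAV binds latent TGF-β, had 14.7, 2.07 and 9.24 CPM in PEDOT sums, against 16.05, 2.44 and 11.4 CPM in PVA sums. Its log2 difference between replicates 2 and 1, -2.77 ± 0.14, was the furthest from 0 among the 33 members (adjusted p = 4.7e-09 by edgeR). ITGB4 was at -2.24 ± 0.14 (adjusted p = 2.6e-08 by edgeR) in the same contrast. ITGA4, a VCAM1 and fibronectin receptor chain, had 5.85, 1.36 and 2.75 CPM in PEDOT sums, against 7.34, 1.52 and 5.42 CPM in PVA sums, with replicate 2 lowest on each scaffold.

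Laminin chains split by replicate number. The low-abundance chain LAMC3 was lower in replicate 2 than in replicate 1 (-1.89 ± 0.23 on the log2 scale). LAMB1, a β chain of many laminins in muscle and other tissues, went the other way: it had 58.4, 128 and 123 CPM in PEDOT sums, against 43.4, 119.8 and 123 CPM in PVA sums. Replicate 1 was the lowest on both scaffolds, and replicates 2 and 3 were both 1.29 ± 0.10 above it on the log2 scale (adjusted p = 2.3e-07 and 1.2e-06 by edgeR). LAMA4 had 91.5, 133 and 173 CPM in PEDOT sums, against 79.3, 115 and 194 CPM in PVA sums. Here replicate 3 was the highest on both scaffolds, 1.11 ± 0.10 above replicate 1 on the log2 scale (adjusted p = 3.3e-06 by edgeR).

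LAMA1 and ITGA10 were also lowest in replicate 1. LAMA1 had 7.60, 11.8 and 15.4 CPM in PEDOT sums, against 8.01, 13.9 and 13.9 CPM in PVA sums. ITGA10, the collagen receptor chain known from cartilage, had 11.2, 36.5 and 24.6 CPM in PEDOT sums, against 16.7, 40.0 and 21.6 CPM in PVA sums. It was the only collagen receptor chain with a call in the opposite direction to ITGA1 and ITGA11 between replicates 2 and 1 (1.47 ± 0.14, adjusted p = 2.0e-06 by edgeR). ITGA2, the fourth, was lowest in replicate 3 on both scaffolds and did not pass between replicates 2 and 1 (0.32 ± 0.15, adjusted p = 0.14 by edgeR).

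ITGA9, ITGA8 and ITGA5 also differed between replicate numbers. ITGA9, a tenascin and VCAM1 receptor chain, had 51.9, 38.1 and 66.8 CPM in PEDOT sums, against 67.7, 40.7 and 69.1 CPM in PVA sums. ITGA8, the nephronectin receptor chain, had 16.7, 11.4 and 25.2 CPM in PEDOT sums, against 20.3, 11.7 and 25.4 CPM in PVA sums. Both were lowest in replicate 2 and, on PEDOT and on PVA, highest in replicate 3. ITGA5 had 124, 146 and 148 CPM in PEDOT sums, against 128, 156 and 173 CPM in PVA sums, lowest in replicate 1 on both.

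Most of the main muscle chains had small differences between replicate numbers. LAMC1 (adjusted p = 0.70), LAMA2 (0.52), ITGA7 (0.81) and ITGB1 (0.12) had no call for replicate number by edgeR, and their log2 differences between replicates 2 and 1 were -0.06 ± 0.08, 0.11 ± 0.08, 0.07 ± 0.09 and -0.19 ± 0.08 in that order. LAMB2 was called (adjusted p = 0.0151 by edgeR), lowest in replicate 1 on both scaffolds and 0.36 ± 0.09 higher in replicate 2 on the log2 scale. ITGAV passed with a difference of -0.29 ± 0.09 that kept its call in 22 of 27 alternatives. ITGA3 had 118, 100.0 and 106 CPM in PEDOT sums, against 124, 105 and 126 CPM in PVA sums and was not called in the joint test (adjusted p = 0.0779 by edgeR). Nor was LAMA5 (adjusted p = 0.0616 by edgeR). Both were called lower in replicate 2 than in replicate 1: ITGA3 by -0.24 ± 0.08 (adjusted p = 0.0379 by edgeR) and LAMA5 by -0.26 ± 0.08 (adjusted p = 0.0271 by edgeR).

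The remaining members with at least 5 CPM were ITGA6, ITGAE, ITGB5 and LAMB3. ITGA6 had 8.53, 6.63 and 12.02 CPM in PEDOT sums, against 9.07, 8.27 and 12.7 CPM in PVA sums. ITGAE, which pairs with ITGB7 on lymphocytes, had 6.28, 8.68 and 6.38 CPM in PEDOT sums, against 6.11, 8.37 and 6.43 CPM in PVA sums. ITGA6 was highest in replicate 3 and ITGAE in replicate 2, on each scaffold. ITGB5 had 133, 97.9 and 95.1 CPM in PEDOT sums, against 134, 108 and 111 CPM in PVA sums, and LAMB3 had 14.3, 9.89 and 9.09 CPM in PEDOT sums, against 15.5, 12.8 and 9.94 CPM in PVA sums. Both were highest in replicate 1 on each scaffold.

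**Figure D3:**
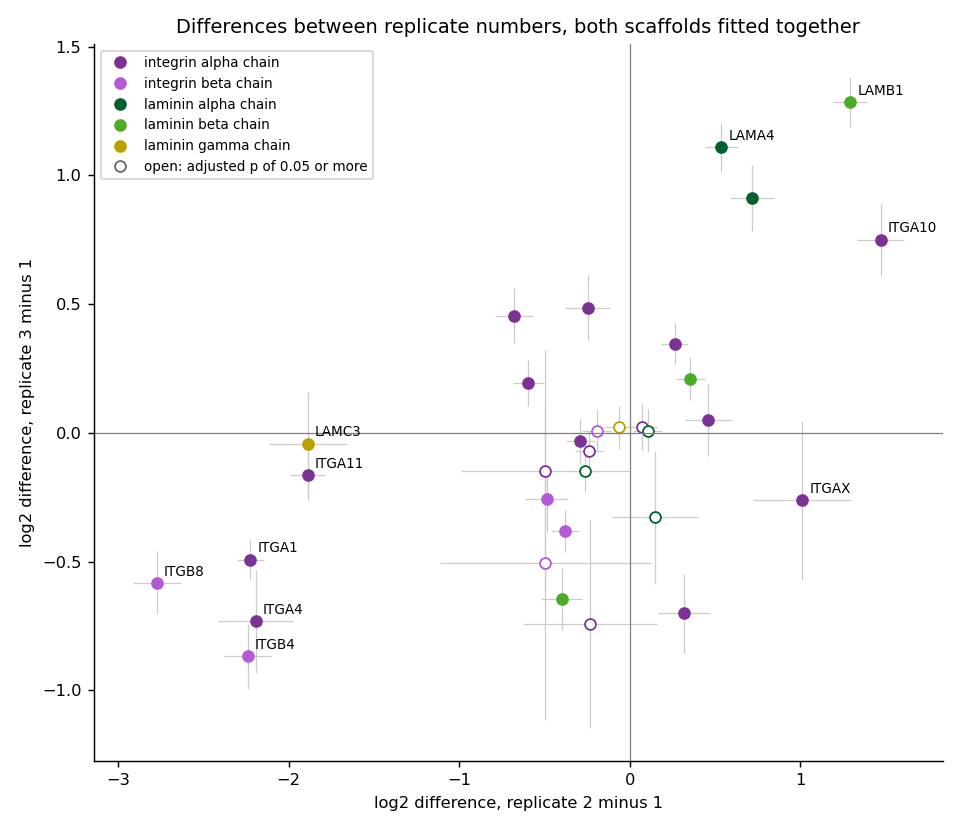
Log2 difference of replicate 2 minus 1 (horizontal axis) and replicate 3 minus 1 (vertical axis) for 32 tested chains, with SE bars, coloured by chain class. ITGB8, ITGB4, ITGA1, ITGA4, ITGA11 and LAMC3 lie at the left (-2.77 to -1.89) and LAMB1, LAMA4 and ITGA10 at the upper right, with most abundant muscle chains near the centre.

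**Figure D4:**
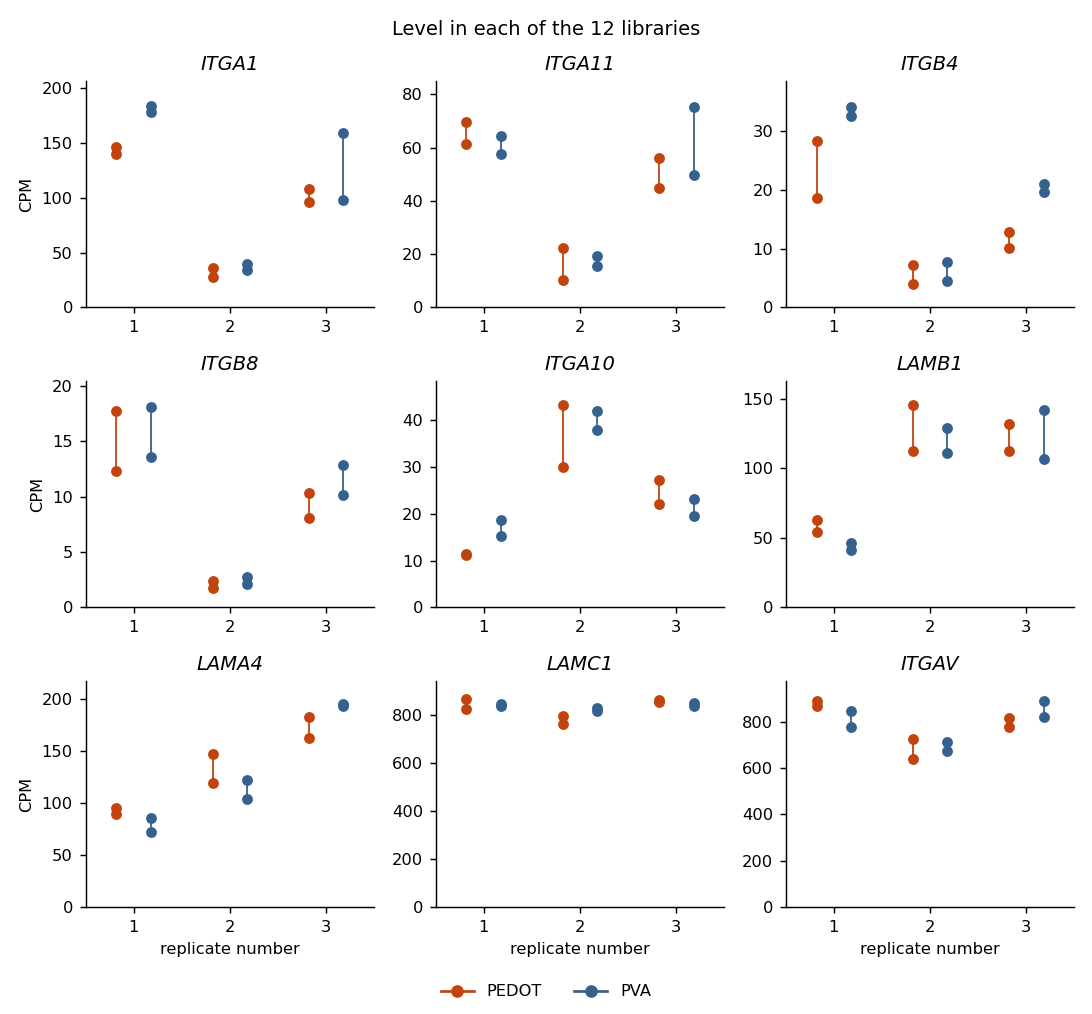
CPM in each of the 12 libraries for 9 chains, by replicate number, with PEDOT (red) left of PVA (blue) and a line joining the 2 technical libraries of a sum. Replicate 2 lies below both other numbers on each scaffold for ITGA1, ITGA11, ITGB4 and ITGB8, and the technical libraries of PVA replicate 3 are wide apart for ITGA1 (97.6 and 159 CPM) and ITGA11 (49.7 and 75.4 CPM).

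The promoter windows of 5 members are shown as examples of the replicate patterns: 3 that fell together in replicate 2, 1 that rose and 1 that stayed level. RefSeq windows (GRCh38.p14, 250 bases before to 50 after the annotated start) were at hand for 26 of the 38 members, in 33 windows. Capitals mark matches, on either strand, to the GC box, spelled GGGCGG, and to the AP-1 site, spelled TGANTCA. They also mark the M-CAT element known from muscle promoters, spelled CATTCC, the TATA element, spelled TATAAA, and the box named by its letters, CCAAT. Each is written 5′ to 3′ on the strand of its gene, and fell, rose or level is said of replicate 2 against replicate 1.
ITGA1, fell, chr5:52787666-52787965, plus strand: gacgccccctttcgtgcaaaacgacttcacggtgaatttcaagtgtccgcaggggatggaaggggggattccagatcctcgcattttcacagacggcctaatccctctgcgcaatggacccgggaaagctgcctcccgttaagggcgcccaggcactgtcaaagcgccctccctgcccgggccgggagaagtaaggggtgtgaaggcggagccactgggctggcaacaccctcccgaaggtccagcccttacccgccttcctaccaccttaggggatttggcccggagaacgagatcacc
ITGB8, fell, chr7:20330650-20330949, plus strand: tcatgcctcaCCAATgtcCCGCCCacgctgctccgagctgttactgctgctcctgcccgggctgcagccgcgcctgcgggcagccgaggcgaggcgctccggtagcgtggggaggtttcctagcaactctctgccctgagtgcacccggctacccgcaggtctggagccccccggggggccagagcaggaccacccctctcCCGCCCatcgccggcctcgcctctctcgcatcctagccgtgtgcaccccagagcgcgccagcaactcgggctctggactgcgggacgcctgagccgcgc
ITGA11, fell, chr15:68432114-68432413, minus strand: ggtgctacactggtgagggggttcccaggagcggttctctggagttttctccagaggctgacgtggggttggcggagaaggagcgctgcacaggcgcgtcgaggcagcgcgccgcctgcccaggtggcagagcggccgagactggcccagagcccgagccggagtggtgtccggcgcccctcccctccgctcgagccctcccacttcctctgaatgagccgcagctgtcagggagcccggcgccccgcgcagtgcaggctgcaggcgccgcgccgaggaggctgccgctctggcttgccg
LAMB1, rose, chr7:108003112-108003411, minus strand: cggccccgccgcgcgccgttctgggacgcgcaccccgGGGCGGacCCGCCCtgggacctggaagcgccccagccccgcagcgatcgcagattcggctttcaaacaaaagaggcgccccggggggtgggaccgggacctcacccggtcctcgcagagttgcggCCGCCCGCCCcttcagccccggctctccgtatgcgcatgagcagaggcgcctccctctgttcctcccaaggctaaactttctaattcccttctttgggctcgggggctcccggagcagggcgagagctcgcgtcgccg
LAMC1, level, chr1:183023170-183023469, plus strand: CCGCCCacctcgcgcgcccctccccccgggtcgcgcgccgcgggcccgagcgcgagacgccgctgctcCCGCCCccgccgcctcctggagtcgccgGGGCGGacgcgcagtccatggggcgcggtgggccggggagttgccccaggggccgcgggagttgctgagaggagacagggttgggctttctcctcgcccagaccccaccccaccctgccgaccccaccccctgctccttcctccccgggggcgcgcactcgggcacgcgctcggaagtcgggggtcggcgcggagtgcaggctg
The 3 windows of the genes low in replicate 2 did not share a match: ITGB8 held 2 GC boxes and 1 CCAAT box, while ITGA1 and ITGA11 held none of the 5 motifs. LAMB1 held 4 GC boxes, of which 2 overlap, and LAMC1 held 3. All 5 windows were rich in G and C, from 61.7% in ITGA1 to 79.0% in LAMC1, against a median of 58.7% over 35116 windows of the same length.

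Across the 33 member windows a GC box stood in 57.6%, against 44.95% of all windows, and a CCAAT box in 18.2%, against 34.6%. An M-CAT match stood in 12.1%, against 14.03% of all windows, and 1 of the 4 windows was that of LAMA2. AP-1 matches stood in 9.1%, against 7.71%, and TATA boxes in 6.1%, against 11.5%. Several windows belong to the same gene, and a match describes the letters of the window only.

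Markers of several other cell types moved with the replicate number too (31.8% of all genes differed between replicate numbers). The 8 fibroblast markers (COL1A1, COL3A1, DCN, LUM, PDGFRA, POSTN, TCF21 and FBLN1) summed to 5174, 645 and 2775 CPM in PEDOT replicates 1, 2 and 3, against 2836, 623 and 2481 CPM in PVA replicates 1, 2 and 3. All 8 differed between replicate numbers, with replicate 2 lowest in the sum on both scaffolds, as for ITGA1 and ITGA11. The sum is mostly COL1A1 and COL3A1, and POSTN went the other way, with a log2 difference of 1.55 ± 0.13 between replicates 2 and 1 (adjusted p = 4.5e-07 by edgeR). The 8 smooth muscle and pericyte markers summed to 799, 369 and 549 CPM in PEDOT sums, against 882, 452 and 701 CPM in PVA sums, and all 8 differed between replicate numbers. The cardiomyocyte sum was lowest in replicate 1 on both scaffolds, as for LAMB1 and ITGA10, and 9 of its 10 genes differed between replicate numbers.

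The 8 epicardial and mesothelial markers summed to 116, 51.0 and 112 CPM in PEDOT sums, against 128, 46.5 and 133 CPM in PVA sums. Endothelial markers (8 genes) summed to 19.1 to 32.4 CPM in PEDOT sums and 29.3 to 32.7 CPM in PVA sums, and pluripotency markers (6 genes) to 3.29 to 3.90 CPM in PEDOT sums and 3.92 to 4.31 CPM in PVA sums. The 10 epithelial and endoderm markers summed to 917 to 1375 CPM in PEDOT sums and 966 to 1408 CPM in PVA sums, with ranges that overlap. The 8 neural and Schwann cell markers summed to 1022 to 1096 CPM in PEDOT sums and 989 to 1071 CPM in PVA sums, with S100B at 0. Between replicate numbers 6 of 7 tested epicardial, 6 of 7 epithelial and 2 of 7 endothelial markers differed, against 31.8% of all genes. For neural and megakaryocyte markers it was 1 of 3 tested each, and for leukocyte and pluripotency markers 0 of 1 each. The part of these cells in the integrin and laminin values was not tested. In bulk samples fewer cells of a type and less RNA per cell cannot be told apart.

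Between scaffolds, PEDOT had the higher fibroblast and cardiomyocyte sums in all 3 pairs. The smooth muscle, endothelial, epithelial, megakaryocyte and pluripotency sums were lower on PEDOT in all 3. Of single genes 28.9% kept the same direction in all 3 pairs. Some gaps were very small: the endothelial sum in replicate 1 was 32.4 CPM on PEDOT and 32.7 CPM on PVA. The pluripotency sum in replicate 2 was 3.90 CPM on PEDOT and 3.92 CPM on PVA. With the block 1 smooth muscle and pericyte marker was lower on PEDOT, the pericyte gene RGS5 (log2 difference -0.46 ± 0.06, adjusted p = 0.00795 by edgeR), and 1 cardiomyocyte marker was higher, the myosin gene MYH7 (0.95 ± 0.17, adjusted p = 0.038 by edgeR). Without the block 0 of these markers passed. These movements stand beside the lower within-pair values of ITGA1, ITGB4 and LAMB3, and their part in these was not tested.

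**Figure D5:**
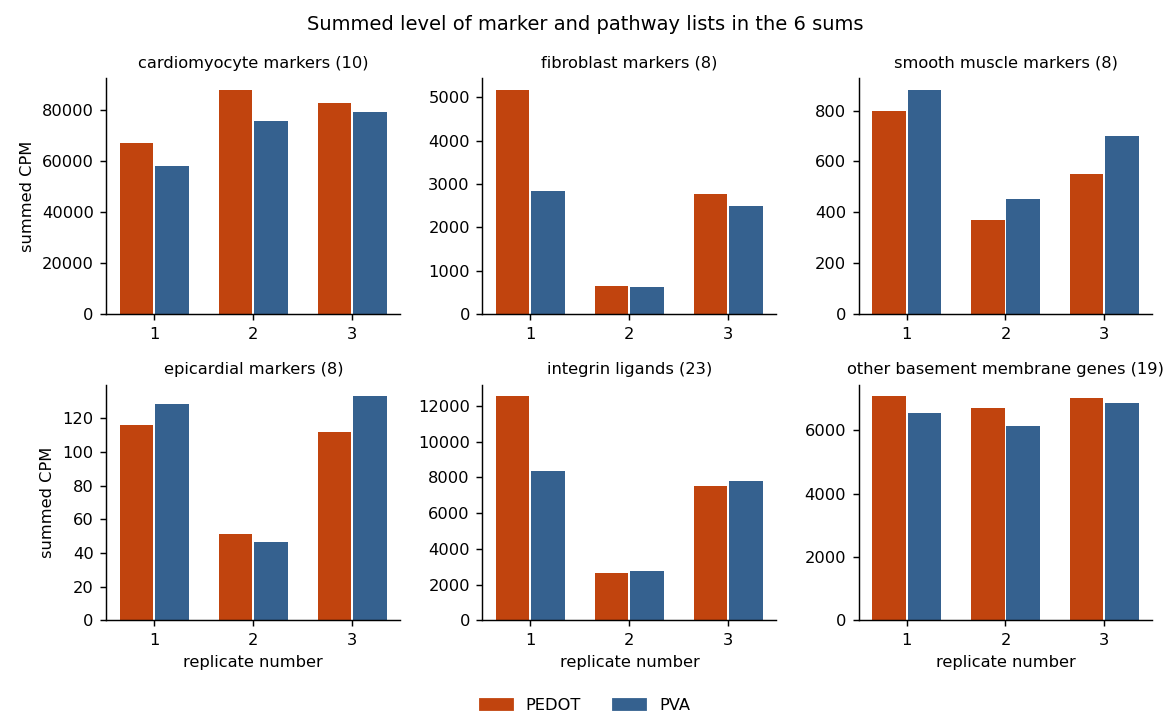
Summed CPM of 4 marker lists and 2 pathway lists in the 6 sums, by replicate number, with PEDOT (red) left of PVA (blue); bars start at 0 and have no error since each is 1 sum. Fibroblast markers and integrin ligands are lowest in replicate 2 on both scaffolds, while the sum of the other basement membrane genes stays between 6129 and 7073. HSPG2 is the largest part of that sum (2510 to 3450 CPM), and 14 of the 19 genes in it differed between replicate numbers.

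The genes that work with these chains were read from 4 lists. Of the 28 tested genes of the adhesion complex inside the cell, 0 were called between PEDOT and PVA by edgeR with or without the block. At an unadjusted p under 0.05 there were 0 without the block and 7 with it (0.892% and 8.32% of all genes). Between replicate numbers 15 differed (53.6%, against 31.8% of all genes and 40.8% of those with a mean of 5 CPM or more). The leading examples were the actin linkers TNS1, with 536, 244 and 376 CPM in PEDOT sums, against 548, 244 and 383 CPM in PVA sums, and ACTN1, with 507, 254 and 343 CPM in PEDOT sums, against 614, 305 and 438 CPM in PVA sums. Both were lowest in replicate 2 on each scaffold. The smallest p between scaffolds without the block, none of them a call, were those of 3 genes. They were the kindlin gene FERMT1 (log2 difference -0.30 ± 0.15), the tensin gene TNS3 (0.19 ± 0.12) and the focal adhesion kinase relative PTK2B (0.24 ± 0.16). FERMT1, lower on PEDOT, and PTK2B, higher, were among 3 genes of the list with separate ranges (4.6% of all genes). With the block ACTN1 came nearest to a call, lower on PEDOT in each pair (-0.30 ± 0.06, adjusted p = 0.0970 by edgeR).

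Of the 19 other basement membrane genes, 0 were called between scaffolds by edgeR with or without the block. At an unadjusted p under 0.05 there were 0 without the block and 6 with it (0.892% and 8.32% of all genes). Between replicate numbers 14 differed (73.7%, against 31.8% of all genes and 40.8% of those with a mean of 5 CPM or more). COL15A1, a collagen of the basement membrane zone, had 164 CPM, 10.2 CPM and 73.9 CPM in PEDOT sums, against 110.0, 13.8 and 81.3 CPM in PVA sums. HSPG2, the proteoglycan perlecan, was higher in all 3 PEDOT sums than in any PVA sum. Such separate ranges, in either direction, were held by 4.6% of all genes. HSPG2 had means of 3134 ± 278 CPM on PEDOT and 2644 ± 132 CPM on PVA (SD, n = 3 each). Its log2 difference was 0.25 ± 0.13 and did not pass by edgeR's quasi-likelihood test. The next smallest p without the block belonged to the collagen IV chain gene COL4A6 (-0.17 ± 0.11) and to the laminin linker NID1 (-0.22 ± 0.25). Neither was called. With the block NID1 was at -0.23 ± 0.06 (adjusted p = 0.228 by edgeR), lower on PEDOT in each pair.

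Integrin ligands outside the laminins followed the replicate number most often, 21 of 23 genes (91.3%). The share was 31.8% of all genes and 40.8% of those with a mean of 5 CPM or more. Again 0 were called between scaffolds by edgeR with or without the block. At an unadjusted p under 0.05 there were 0 without the block and 9 with it (0.892% and 8.32% of all genes). Fibronectin, FN1, the ligand of ITGA5 and ITGAV, had 3714, 486 and 2231 CPM in PEDOT sums, against 2675, 577 and 2519 CPM in PVA sums. Tenascin C, TNC, a ligand of ITGA9, had 281, 6.16 and 115 CPM in PEDOT sums, against 139.6, 6.96 and 154 CPM in PVA sums. Replicate 2 was the lowest for both, as it was for ITGA9, while ITGA5 was lowest in replicate 1. Without the block the smallest p between scaffolds, again not calls, were those of MADCAM1 (log2 difference 0.36 ± 0.26) and the matricellular genes CCN1 (0.23 ± 0.20) and CCN2 (0.27 ± 0.24).

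Among the 20 other laminin receptors and dystroglycan complex genes, 0 were called between scaffolds by edgeR with or without the block. At an unadjusted p under 0.05 there were 0 without the block and 6 with it (0.892% and 8.32% of all genes). Between replicate numbers 10 differed (50%, against 31.8% of all genes and 40.8% of those with a mean of 5 CPM or more). BCAM, a receptor for laminins with the α5 chain, had 241, 344 and 249.8 CPM in PEDOT sums, against 196, 312 and 227 CPM in PVA sums. It was highest in replicate 2 on each scaffold. The sarcospan gene SSPN (log2 difference 0.19 ± 0.15) and the dystroglycan mannosyltransferase gene POMT1 (0.09 ± 0.09) were among the genes of smallest p between scaffolds without the block. They were not called.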

How the data were processed

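The submitters deposited raw read-pair counts per gene name, with no scaling. Per the file headers, featureCounts 2.0.1 was used on GENCODE release 33 with paired ends and the reverse strand setting. Reads that match several places or several genes were not asked for, so counts of near-identical genes can be low. The submitters' processing notes also name FastQC, STAR, DESeq2, edgeR and the build hg38, but no settings of the aligner. All 12 count columns were matched to a sample by name.

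The 2 technical libraries of a biological replicate were summed to 6 sums, 3 PEDOT and 3 PVA, of 44.5 to 57.5 M counts. The filter filterByExpr with a minimum count of 10 and a total of 15 left 21298 genes. TMM scaling and the two-sided quasi-likelihood test of edgeR 4.0.16 (R 4.3.3) were used, with Benjamini-Hochberg adjustment over all 21298 genes and a threshold of 0.05. The scaffold comparison had scaffold as its only term. Replicate number was tested with scaffold in the model, by a joint F test and by the 3 contrasts between numbers. The SE of a log2 difference is its size divided by the square root of F, and 2 was the prior count of log2 CPM. Chain shares used counts divided by the exon length in the table, with exact permutation tests over the 20 assignments of the 6 sums. The edgeR fits were tested on simulated data. For the scaffold tests no replicate effect was simulated, so that run does not bear on the result without the block.

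Replicate numbers are shared between scaffolds, and no label says what they mark. After subtracting scaffold means, same-numbered sums had correlations across genes of 0.678, 0.703 and 0.503, and other pairs of -0.609 to -0.005, so by the rule of over 0.1 in every pair the numbers pair the sums. The pairing therefore comes from the values.

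The members, gene lists, tests and most alternatives were chosen with earlier results of these data known. Named genes are all members, with values per sum for those of 5 CPM or more and for called ones. For replicate number they are up to 10 members of smallest adjusted p. From each list they are the called genes or else up to 3 of smallest p without the block. The blocked values of ACTN1 and NID1 were added after they were seen. The list genes named for replicate number (TNS1, ACTN1, COL15A1, FN1, TNC and BCAM) were chosen after their values were seen. Alternatives were DESeq2 1.42.0, limma-voom (limma 3.58.1), other scalings and filters, single technical libraries and left-out samples. Motifs were searched with a script in Python, and sequences come from RefSeq on GRCh38.p14, the same genome build as hg38. Values of 1 tested chain and of some list genes are not reported here, though counts over members and lists include them. What separates the technical libraries is not stated in the labels.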

Additional observations from a re-analysis of the deposited data

Results flagged for a closer look

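Among the 6 libraries of each scaffold, 2 of the 66 combinations of a tested member and a scaffold held 1 library far from the other 5 (its gap to the nearest library, relative to the whole range, was above Dixon's critical value for 6). Chance flags about 1 in 20 such groups, and technical libraries of 1 replicate are not independent. ITGA3 was at 132.6 CPM in library 3 of PEDOT replicate 1, against 95.7 to 108 CPM in the other 5 PEDOT libraries. ITGAE was at 9.36 CPM in library 3 of PVA replicate 2, against 5.87 to 6.90 CPM in the other 5 PVA libraries.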

How the results depend on the processing

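Between PEDOT and PVA without a block, 0 members and 0 genes were called in every one of the 26 alternatives without a block that were run. With the replicate block 57 genes and 0 members were called. The blocked count of genes was 96 with DESeq2, 389 with every gene with a count, 1 with a mean of 5 CPM or more, 1 with upper-quartile scaling, 37 with library size only, 67 with limma-voom, 16 with the lower-numbered technical libraries alone and 4 with the higher-numbered ones. Leaving out a pair or a library in the blocked fit gave 4 to 284 genes and 0 to 2 members: 170, 22 and 284 genes without pairs 1, 2 and 3. Blocked calls of members were 2 with DESeq2, 4 with every gene with a count and 1 with limma-voom, and the cause was not tested. The sign of the PEDOT minus PVA difference changed in at least 1 alternative for 24 of the 33 members, none of them called without the block. The count of members called for replicate number lay between 18 (without PVA replicate 2) and 25 over the alternatives, against 23. Of the 23 members called between replicates 2 and 1, 11 kept their call in every alternative that gave a value and 0 changed sign. They are not the same 23 as in the joint test: ITGA3 and LAMA5 were called in this contrast but not jointly, and ITGA2 and ITGA6 jointly but not in this contrast. In the main edgeR fit, beside the count of genes and the calls of RGS5 and MYH7, the block changed no call given here. In some of the other blocked fits ITGB4, ITGA2, ITGA1 or LAMC3 were called, and in 0 fits without a block. With 3 sums a scaffold, within-scaffold spread that follows the replicate number limits the unblocked test: the SE of ITGA1 was 0.67 without the block and 0.06 with it.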
